A study of Mus musculus with 9 samples.

Results

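Left ventricles from a pair of neonatal pressure-load models, which differ in the day on which the aorta was narrowed, were compared directly. The compared members are the 3 libraries from mice with transverse aortic constriction (TAC) at postnatal day 1 and the 3 libraries from mice with TAC at postnatal day 7, which are 6 of the 9 libraries of the study. The other 3 libraries came from sham-operated mice. They served to place each gene, and they also entered the filter on low values and the estimate of spread behind every test. Members were picked by their labelled surgery and not by a measured value, though earlier results of these data were known when this comparison was chosen. All mice were of the outbred ICR/CD1 strain, no genetic alteration is given for any group, and every heart was taken at postnatal day 14. The day-1 TAC hearts had therefore been banded for 13 days and the day-7 TAC hearts for 7 days, so that age at banding and duration of load cannot be told apart in any value below. The labels used here do not give the day of sham surgery or the number of animals in a library.

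In TAC a ligature narrows the aortic arch, the left ventricle has to eject against a higher pressure, and the muscle wall thickens. Cardiomyocytes of newborn mice still divide, and a heart injured in the first days of life can restore muscle, an ability that fades within the first week. In the same period cardiomyocytes change their fuel from glucose and lactate to fatty acids, build up mitochondria and exchange fetal for adult sarcomere proteins, among them slow skeletal for cardiac troponin I and beta for alpha myosin heavy chain. The labels call day 1 the regenerative and day 7 the non-regenerative stage, and the question put by the study's design is how the expression pattern differs between banding in these stages.

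Between 18535202 and 26521005 reads per library were recovered from the deposited values. All values below are log2 values on the authors' scale, and a difference is that of the group means. In day-1 TAC replicate 3 the female-specific RNA Xist had 10532 reads, against 7 to 40 in the other 8 libraries, and the Y-linked gene Ddx3y had 18 reads, against 3312 to 4706. That library thus stands apart from the others in sex-linked genes, and counts without it are given beside the main results. The lowest correlations within a group were those of day-1 TAC replicate 1 (r across genes of 0.977 and 0.981, against 0.987 between replicates 2 and 3). Ventricular cardiomyocyte markers were high in all libraries, Myh6 between 14.94 and 15.88. Of 11 thymus and lung markers only 1 had deposited values, and it did not pass the filter on low values.

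Of 13712 genes tested, 2287 (16.7%) differed between the TAC groups at an adjusted p under 0.05 (limma, Benjamini-Hochberg adjustment). With day-1 TAC 880 genes (6.42%) were higher and 1407 (10.3%) were lower. This split rests on the scaling: 38.5% of the called genes were higher with day-1 TAC on the deposited scale, 44.9% with trimmed-mean scaling, 48.4% with median ratios, 50.2% with equal totals and 56.8% with upper quartiles, although these scalings moved the median of all genes only between -0.03 and 0.03. Most differences were small, with a median size of 0.49 among called genes, and 345 of them were at least 2-fold, 176 higher and 169 lower with day-1 TAC. Libraries of the TAC groups did not overlap in 2272 of the called genes, and in 38.9% of all genes tested. Without the female library 1633 genes were called, close to the 1684 without day-1 TAC replicate 1 and the 1671 without day-1 TAC replicate 2. Leaving out a day-7 TAC library left between 1261 and 1300.

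Against sham, 34.8% of the tested genes were called with day-1 TAC (14.3% higher, 20.5% lower) and 28.9% with day-7 TAC (13.8% higher, 15.1% lower). Both comparisons use the same 3 sham libraries. Placed by the sham mean, the called genes between the TAC groups fell into 1162 whose TAC means lay on opposite sides of sham and 1125 whose TAC means lay on one side. An opposite placement was found in 50.8% of the called genes and in 20.7% of the genes not called, a difference that follows in part from the construction, since a wider gap leaves more room for the sham mean. For 406 of the genes on opposite sides neither TAC group differed from sham by the test. In 396 only day-1 TAC differed from sham and in 322 only day-7 TAC. Only 38 genes differed from sham in both groups and in opposite directions, 18 of them higher and 20 lower with day-1 TAC. On one side of sham, both sham differences were called for 296 genes, only that of day-1 TAC for 498 and only that of day-7 TAC for 331.

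**Figure D1:**
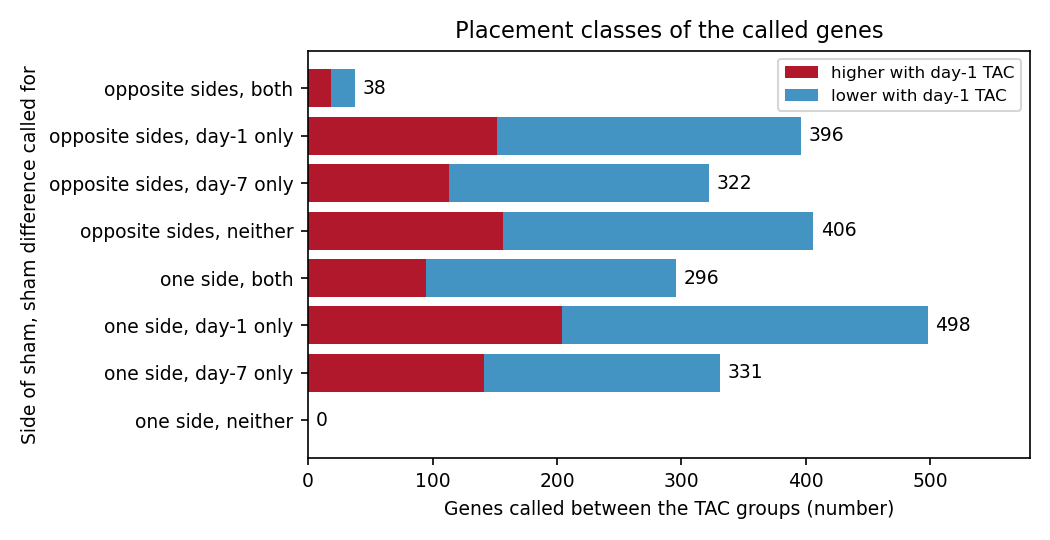
Number of genes called between the TAC groups in each placement class, with the side of the sham mean and the TAC group whose difference from sham was called on the y axis; red and blue give the direction with day-1 TAC. The class of genes moved to opposite sides with both sham differences called holds 38 genes, against 296 on one side of sham.

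**Figure D2:**
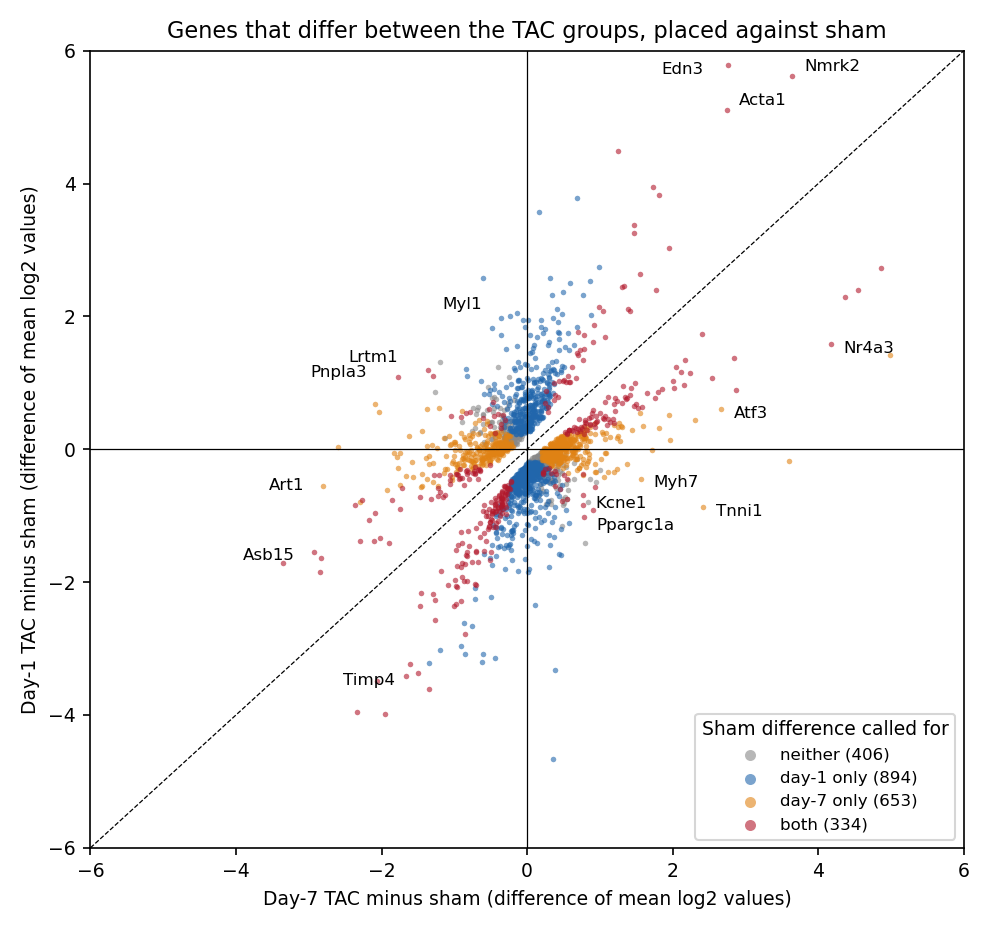
Each point is 1 of the 2287 genes called between the TAC groups, placed by its day-7 TAC minus sham difference (x axis, log2) and its day-1 TAC minus sham difference (y axis, log2); colours give which sham differences were called and the dashed line marks equal differences. Nmrk2 and Acta1 lie above sham in both groups, Ppargc1a, Kcne1, Pnpla3 and Lrtm1 lie in the quadrants of opposite sign, and Tnni1 and Myh7 lie at the right, high with day-7 TAC only.

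Genes lower than sham with day-1 TAC and higher than sham with day-7 TAC included Ppargc1a, Kcne1, Scin, Filip1 and Cirbp. Ppargc1a (chr5:51454250-51567726 on the minus strand, GRCm38, as all gene positions here) encodes PGC-1 alpha, the coactivator that drives mitochondrial gene programmes. Its values were 7.14, 7.49 and 7.68 for day-1 TAC, 9.2, 9.38 and 9.13 for day-7 TAC and 8.67, 8.46 and 8.24 for sham. The 3 groups did not overlap, with sham in the middle. The TAC groups differed by -1.8 ± 0.14 (SE, adjusted p = 5.83e-04), which is 3.48-fold, made up of a difference of -1.02 from sham with day-1 TAC (adjusted p = 7.48e-04) and one of 0.78 with day-7 TAC (adjusted p = 0.0035).

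Kcne1 (chr16:92345982-92359468, minus strand), the accessory subunit of the slow delayed-rectifier potassium channel, had the same order. Its values were 6.21, 6.52 and 6.57 for day-1 TAC, 7.89, 8.07 and 7.74 for day-7 TAC and 7.15, 6.92 and 7.32 for sham. No library of a group reached into another, and the TAC groups were 2.75-fold apart (-1.46 ± 0.13 SE, adjusted p = 5.83e-04). Scin, which encodes the actin-severing protein scinderin, stood at 2.12, 1.86 and 1.61 for day-1 TAC, 3.37, 3.52 and 3.5 for day-7 TAC and 2.68, 2.44 and 2.98 for sham. It too was separated in all libraries, with a TAC difference of -1.6 ± 0.17 (SE, adjusted p = 6.94e-04). Filip1, a filamin-interacting protein of muscle, had 7.86, 7.94 and 8.02 for day-1 TAC, 9.06, 8.86 and 8.88 for day-7 TAC and 8.25, 8.45 and 8.46 for sham, again without overlap. Its TAC difference was -0.99 ± 0.09 (SE, adjusted p = 5.83e-04).

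Cirbp, a cold-inducible RNA-binding protein, read 4.74, 5.13 and 5.02 for day-1 TAC, 6.2, 6.12 and 6.35 for day-7 TAC and 5.95, 5.77 and 5.49 for sham. Its day-1 TAC libraries lay below all sham libraries and its day-7 TAC libraries above them, with a TAC difference of -1.25 ± 0.13 (SE, adjusted p = 6.68e-04). Of the further members of this direction, Fry differed by -1.3, Plin4, a lipid-droplet coat protein, by -1.05, Tet2, which oxidises methylated cytosine, by -0.93 and Krba1 by -0.77. Outside the naming rule, and named after their values were seen, were the tRNA methyltransferase gene Trdmt1 (-1.13), the TAM-receptor ligand gene Gas6 (-0.71), the splicing regulator gene Ptbp2 (-0.68) and Pdpk1 (-0.58), which encodes a kinase upstream of AKT. Among all called genes, 152 (6.65%) had every day-1 TAC library below and every day-7 TAC library above all sham libraries. Over all 13712 genes tested there were 155 (1.13%), and called genes are by selection those with a wide TAC difference.

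**Figure D3:**
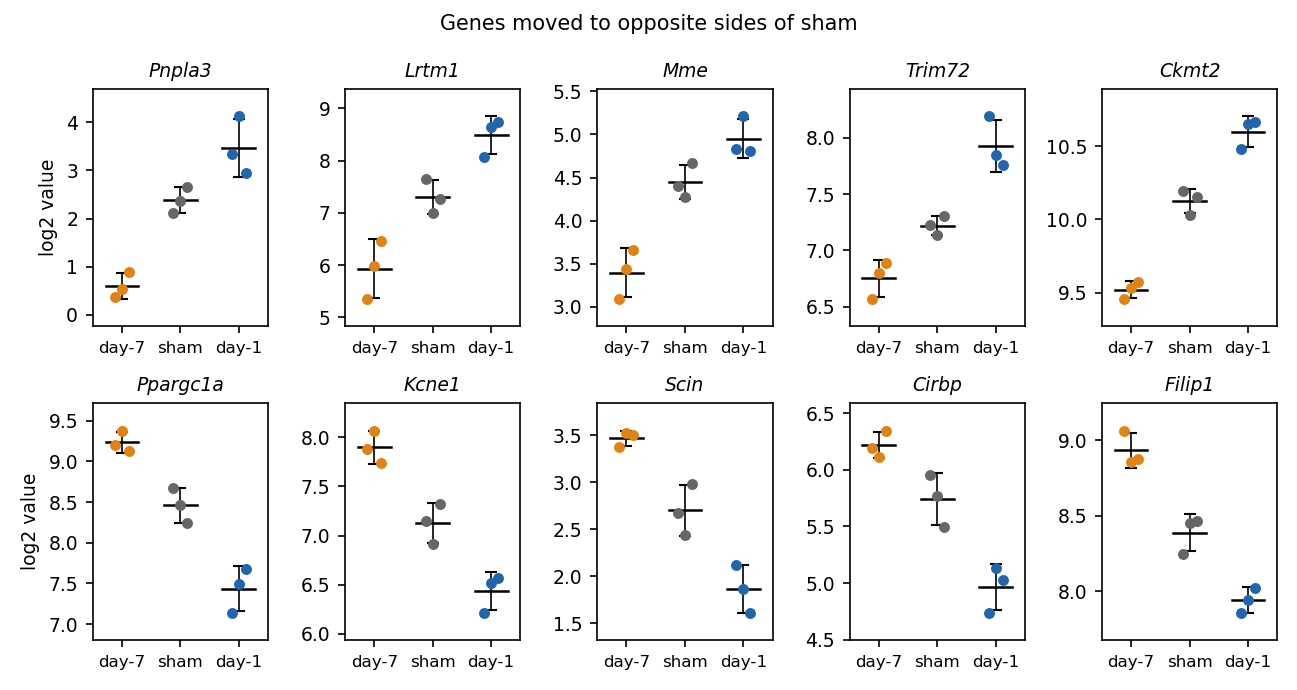
Deposited log2 values (y axis, one scale per gene) of 10 genes moved to opposite sides of sham, with points for the 3 libraries of each group and lines for the mean ± SD. In Ppargc1a, Kcne1, Scin, Cirbp and Filip1 day-7 TAC lies above and day-1 TAC below sham, and in Pnpla3, Lrtm1, Mme, Trim72 and Ckmt2 the order is the reverse.

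In the reverse direction, above sham with day-1 TAC and below it with day-7 TAC, the largest difference was in Pnpla3 (chr15:84167837-84187236, plus strand), a lipase-like protein of lipid droplets. Its values were 3.34, 4.12 and 2.94 for day-1 TAC, 0.37, 0.54 and 0.89 for day-7 TAC and 2.12, 2.36 and 2.65 for sham. The libraries of the 3 groups did not overlap, and the TAC groups were 7.29-fold apart (2.86 ± 0.28 SE, adjusted p = 5.85e-04). Lrtm1 (chr14:29018208-29033645, plus strand), which encodes a leucine-rich repeat transmembrane protein, stood at 8.08, 8.65 and 8.74 for day-1 TAC, 5.36, 5.98 and 6.47 for day-7 TAC and 7.64, 7.0 and 7.26 for sham. Its difference was 2.55 ± 0.27 (SE, adjusted p = 6.68e-04), and the groups were again separate. Cacna2d3, an accessory subunit of voltage-gated calcium channels, had 3.62, 4.22 and 4.25 for day-1 TAC, 1.37, 1.54 and 1.98 for day-7 TAC and 3.29, 2.63 and 2.87 for sham. It differed by 2.4 ± 0.23 (SE, adjusted p = 5.83e-04), with day-1 TAC highest and day-7 TAC lowest in every library. Lrtm1 is nested within Cacna2d3 and the strand setting is not known, so reads of this pair cannot be told apart with certainty.

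Ckmt2 (chr13:91853387-91876885, minus strand), the mitochondrial creatine kinase of striated muscle, had 10.48, 10.65 and 10.67 for day-1 TAC, 9.46, 9.53 and 9.57 for day-7 TAC and 10.19, 10.03 and 10.15 for sham. Spread within its groups was small, and it was 2.11-fold higher with day-1 TAC (1.08 ± 0.08 SE, adjusted p = 5.83e-04). Trim72, a protein of membrane repair in muscle, had 8.19, 7.84 and 7.75 for day-1 TAC, 6.57, 6.8 and 6.89 for day-7 TAC and 7.22, 7.14 and 7.3 for sham, with a difference of 1.17 ± 0.12 (SE, adjusted p = 5.85e-04). Mme, the peptidase neprilysin that degrades natriuretic peptides, read 4.83, 5.21 and 4.81 for day-1 TAC, 3.1, 3.44 and 3.66 for day-7 TAC and 4.41, 4.27 and 4.66 for sham. Its rise over sham with day-1 TAC was 0.5 (adjusted p = 0.037) and its difference with day-7 TAC was -1.05 (adjusted p = 0.0015). Other named members were Tmtc2 (1.4), the histone gene Hist1h2bc (1.33), Lgi4 (1.13), a secreted protein of Schwann cell myelination, and Ogfrl1 (0.96). Ccng1, which encodes cyclin G1, differed by 0.86. Outside the naming rule, and named after their values were seen, were the apoptosis repressor gene Nol3 (0.74), the myotonic dystrophy kinase gene Dmpk (0.74), the leucine catabolism gene Mccc1 (0.7) and the tyrosine kinase gene Syk (0.84). In 74 called genes (3.24%) every day-1 TAC library was above and every day-7 TAC library below all sham libraries, against 79 (0.58%) of the 13712 genes tested.

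All 38 genes kept opposite sides in each of 20 alternative fits with sham, but fewer kept both calls against sham: 30 without the female library, 18 without sham replicate 2, 20 without day-7 TAC replicate 2, and 5 when a minimum fold change of 1.2 was required. Those 5 were Cacna2d3, Kcne1, Lrtm1, Ppargc1a and the unnamed gene D330025C20Rik. Since Lrtm1 is nested within Cacna2d3, this pair may not count as separate genes.

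Promoters of 4 named genes are shown as examples of members that hold a searched motif, 3 from genes on opposite sides and 1 from a gene on one side of sham. Each is the 250 bases before the transcription start in RefSeq on GRCm38.p6, written 5′ to 3′ on the gene's strand, with a searched motif in capitals. Pnpla3 (chr15:84167566-84167815, plus strand) holds a cAMP response element, TGACGTCA. Lrtm1 (chr14:29017958-29018207, plus strand) holds an AP-1 site, TGANTCA, that overlaps an antioxidant response element, TGACNNNGC. Filip1 (chr9:79977883-79978132, minus strand, 1 of its 4 promoters in the table) and Acta1 (chr8:123894776-123895025, minus strand) each hold an SRF CArG box.
Pnpla3: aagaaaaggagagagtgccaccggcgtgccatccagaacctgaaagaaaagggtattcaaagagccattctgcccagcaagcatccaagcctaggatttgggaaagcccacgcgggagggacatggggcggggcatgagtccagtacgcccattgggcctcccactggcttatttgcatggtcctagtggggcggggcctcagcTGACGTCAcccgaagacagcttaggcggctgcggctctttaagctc
Lrtm1: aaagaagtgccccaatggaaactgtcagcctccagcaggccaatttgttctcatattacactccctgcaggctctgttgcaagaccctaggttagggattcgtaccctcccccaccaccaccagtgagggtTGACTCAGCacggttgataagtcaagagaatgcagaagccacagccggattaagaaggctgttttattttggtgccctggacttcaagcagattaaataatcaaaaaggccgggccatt
Filip1: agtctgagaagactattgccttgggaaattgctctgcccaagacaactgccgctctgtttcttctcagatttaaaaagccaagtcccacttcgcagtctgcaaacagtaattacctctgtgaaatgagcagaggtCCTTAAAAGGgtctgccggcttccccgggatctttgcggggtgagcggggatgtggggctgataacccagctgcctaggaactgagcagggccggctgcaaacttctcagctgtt
Acta1: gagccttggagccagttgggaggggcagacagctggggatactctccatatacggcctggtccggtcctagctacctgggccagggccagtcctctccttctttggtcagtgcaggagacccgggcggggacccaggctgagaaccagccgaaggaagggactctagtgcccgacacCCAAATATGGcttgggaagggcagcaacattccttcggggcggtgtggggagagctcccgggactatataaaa
The motif starts 46 bases before the RefSeq start in Pnpla3, 119 in Lrtm1, 115 in Filip1 and 73 in Acta1. For Pnpla3 and Acta1 this start lies upstream of the start in the gene positions printed here, so distances to the latter are larger. Promoters were matched for 10368 of the 13712 tested genes, and both strands were searched. A gene counted as holding a motif if any of its promoters held it. The cAMP response element stood in 3.02% of all these genes, in 2.45% of the matched opposite-side genes higher with day-1 TAC and in 2.6% of those lower. AP-1 sites stood in 5.48%, 7.65% and 5.57%, antioxidant response elements in 13.9%, 16.8% and 13.5% and CArG boxes in 1.47%, 2.14% and 1.48%. A match is a description of letters and was not tested as a binding site.

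On one side of sham, 44 genes rose over sham in both TAC groups and farther with day-1 TAC (medians of 1.56 with day-1 and 0.78 with day-7 TAC). Another 79 rose farther with day-7 TAC (0.55 and 1.11), 122 fell farther with day-1 TAC (-1.06 and -0.50), and 51 fell farther with day-7 TAC (-0.45 and -1.06). The count of 296 fell to 138, 124 and 155 without day-7 TAC replicates 1, 2 and 3, and to 164 without sham replicate 2. The values that follow show differences of size, not of direction.

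Farther above sham with day-1 TAC were Acta1 and Nmrk2, both known to rise in loaded hearts. Acta1 (chr8:123891769-123894751, minus strand), the skeletal alpha actin that neonatal and overloaded hearts express, had 11.5, 10.2 and 10.12 for day-1 TAC, 8.26, 8.1 and 8.35 for day-7 TAC and 5.34, 5.01 and 6.12 for sham. Each TAC library exceeded every sham library, and each day-1 TAC library exceeded every day-7 TAC library. Its rise over sham was 5.11 with day-1 TAC and 2.74 with day-7 TAC, and the TAC groups were 5.17-fold apart (2.37 ± 0.35 SE, adjusted p = 0.0031). Nmrk2, a muscle kinase that makes NAD precursors from nicotinamide riboside, had 6.96, 5.32 and 6.12 for day-1 TAC, 4.22, 4.45 and 3.78 for day-7 TAC and 0.14, 0.75 and 0.64 for sham. All TAC libraries exceeded sham, and its TAC difference was 1.98 ± 0.35 (SE, adjusted p = 0.006).

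Edn3, a vasoactive peptide of the endothelin family, had 4.39, 2.72 and 3.14 for day-1 TAC, 0.42, 0.26 and 0.51 for day-7 TAC and -1.32, -3.09 and -2.68 for sham, with a TAC difference of 3.02 ± 0.5 (SE, adjusted p = 0.0046). Cilp, a matrix protein that fibroblasts of loaded hearts secrete, differed by 1.9 ± 0.45 (SE, adjusted p = 0.019), and this call was lost without day-7 TAC replicate 2 (adjusted p = 0.069). Egr2, an immediate-early transcription factor, differed by 2.21 ± 0.4 (SE, adjusted p = 0.0068), and the aquaporin gene Aqp8, which lost its call without any one of day-1 TAC replicates 1 and 3 and day-7 TAC replicate 1 (adjusted p up to 0.065), by 2.03 ± 0.49 (SE, adjusted p = 0.02).

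Farther above sham with day-7 TAC was Nr4a3 (chr4:48045153-48086447, plus strand), an orphan nuclear receptor induced early by stress signals. Its values were 3.54, 2.15 and 3.03 for day-1 TAC, 5.88, 5.5 and 5.15 for day-7 TAC and 1.35, 1.18 and 1.46 for sham. Both TAC groups exceeded sham, by 1.58 with day-1 and 4.18 with day-7 TAC, and the day-1 TAC group was 6.06-fold lower than the day-7 TAC group (-2.6 ± 0.3 SE, adjusted p = 0.001). Fhad1 had 0.86, 0.56 and 0.59 for day-1 TAC, 2.81, 2.5 and 2.63 for day-7 TAC and -0.42, -0.09 and -0.18 for sham, with no overlap and a TAC difference of -1.98 ± 0.2 (SE, adjusted p = 5.85e-04). The glycosyltransferase gene B3gnt5 differed by -1.48 ± 0.25 (SE, adjusted p = 0.0054) and the spectrin gene Sptbn5 by -1.46 ± 0.28 (SE, adjusted p = 0.0083). The neutrophil granule genes Ngp (-2.14 ± 0.48 SE, adjusted p = 0.016) and Retnlg (-2.07 ± 0.61 SE, adjusted p = 0.043) are taken up with the cell markers. Ngp lost its call without any one of day-7 TAC replicates 2 and 3 (adjusted p up to 0.061) and Retnlg without any one of day-1 TAC replicates 1 and 2, day-7 TAC replicates 1, 2 and 3 and sham replicate 3 (adjusted p up to 0.13).

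**Figure D4:**
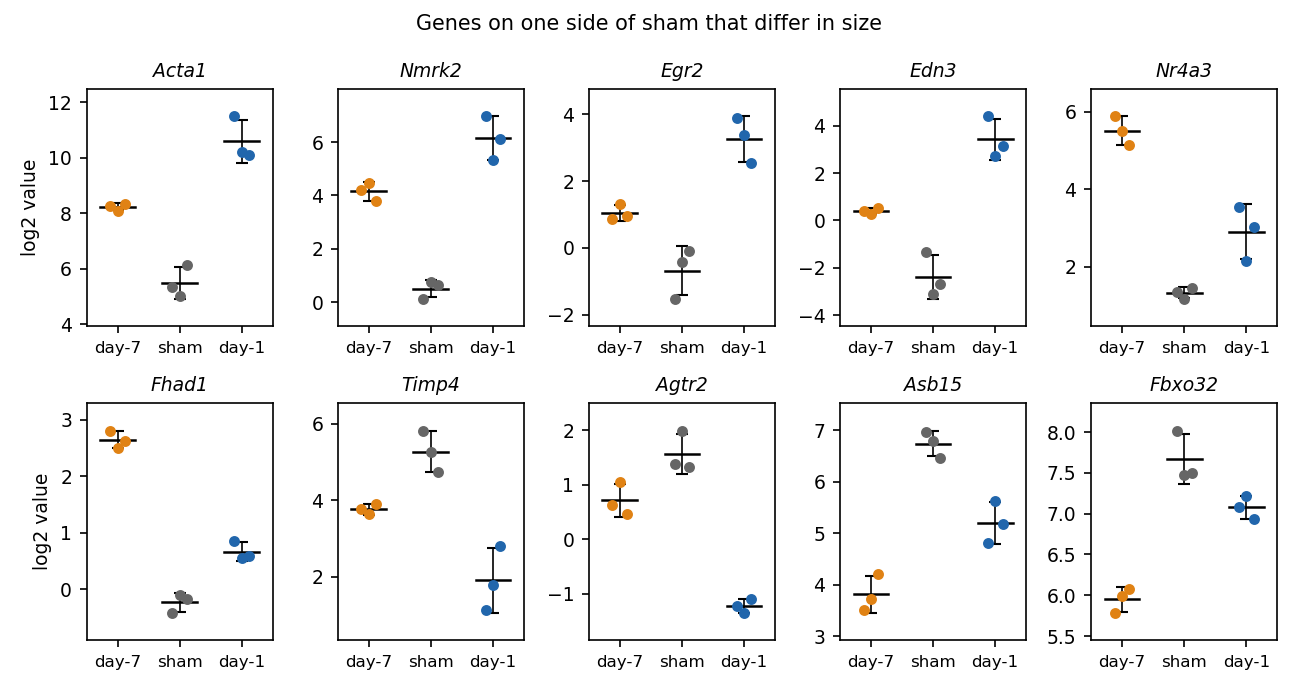
Deposited log2 values (y axis, one scale per gene) of 10 genes on one side of sham, with points for the 3 libraries of each group and lines for the mean ± SD. Acta1, Nmrk2, Egr2 and Edn3 rose farther with day-1 TAC, Nr4a3 and Fhad1 farther with day-7 TAC, Timp4 and Agtr2 fell farther with day-1 TAC, and Asb15 and Fbxo32 fell farther with day-7 TAC.

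Among genes below sham in both groups, Timp4, an inhibitor of matrix metalloproteinases that is abundant in heart, had 1.13, 1.78 and 2.82 for day-1 TAC, 3.77, 3.63 and 3.92 for day-7 TAC and 5.82, 5.25 and 4.75 for sham. Its difference from sham was -3.36 with day-1 and -1.5 with day-7 TAC, a TAC difference of -1.86 ± 0.37 (SE, adjusted p = 0.0095). Agtr2, the angiotensin II receptor of fetal tissues, had -1.22, -1.35 and -1.1 for day-1 TAC, 0.63, 1.06 and 0.46 for day-7 TAC and 1.38, 1.99 and 1.32 for sham. Day-1 TAC libraries were all below the lowest day-7 TAC library, and the TAC difference was -1.94 ± 0.28 (SE, adjusted p = 0.0025). Rp1 and Cfap61 differed by -2.26 and -1.75. Agtr2, Rp1 and Cfap61 had low levels, and across the alternative fits their differences shrank to as little as -0.89, -1.13 and -1.09, with the calls kept. Hif3a, a relative of the hypoxia-inducible factors, differed by -1.63 ± 0.43 (SE, adjusted p = 0.03) and lost its call without any one of day-1 TAC replicates 1 and 2 and day-7 TAC replicates 2 and 3 (adjusted p up to 0.095).

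Farther below sham with day-7 TAC were a pair of muscle ubiquitin ligase subunits. Asb15 had 4.81, 5.63 and 5.17 for day-1 TAC, 3.51, 3.71 and 4.21 for day-7 TAC and 6.96, 6.8 and 6.47 for sham, and Fbxo32, which encodes atrogin-1, had 7.08, 7.22 and 6.93 for day-1 TAC, 5.78, 5.99 and 6.08 for day-7 TAC and 8.02, 7.48 and 7.5 for sham. Neither overlapped between the groups, and the day-7 TAC group was lower by 2.63-fold for Asb15 (difference 1.39 ± 0.22 SE, adjusted p = 0.0041) and 2.18-fold for Fbxo32 (1.13 ± 0.14 SE, adjusted p = 0.0015). Gal3st3, a sulfotransferase gene, differed by 1.53 ± 0.2 (SE, adjusted p = 0.0017) and the RNA-binding protein gene Csdc2 by 1.5 ± 0.25 (SE, adjusted p = 0.0047). Cngb3, a channel subunit known from cones, had a low level and differed by 1.63 ± 0.36 (SE, adjusted p = 0.014). Tmem82 differed by 1.12 ± 0.26 (SE, adjusted p = 0.019) and lost its call without any one of day-1 TAC replicate 2 and day-7 TAC replicates 1 and 3 (adjusted p up to 0.063).

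In several of the widest TAC differences only one of the groups differed from sham by the test. Tnni1 (chr1:135779434-135810989, plus strand), the slow skeletal troponin I of the fetal heart, had 3.57, 4.44 and 4.38 for day-1 TAC, 7.63, 7.95 and 6.67 for day-7 TAC and 4.87, 5.31 and 4.83 for sham. The day-7 TAC libraries stood above all others, and each day-1 TAC library lay below every sham library. The day-1 TAC mean differed from sham by -0.87, which narrowly did not pass the test (adjusted p = 0.054). The libraries of Tnni1 thus lay on opposite sides of sham although only the day-7 TAC call was made. Between the TAC groups Tnni1 was 9.79-fold lower with day-1 TAC (-3.29 ± 0.32 SE, adjusted p = 5.83e-04). Myh7, the beta myosin heavy chain, had 10.69, 11.19 and 11.32 for day-1 TAC, 13.55, 12.8 and 12.89 for day-7 TAC and 11.55, 11.69 and 11.3 for sham. Its group means had the same order as those of Tnni1, but its day-1 TAC libraries overlapped sham. Myh7 rose by 1.57 over sham with day-7 TAC. Its day-1 TAC difference from sham of -0.45 did not pass the test (adjusted p = 0.14), and its TAC difference was -2.01 ± 0.22 (SE, adjusted p = 7.07e-04). Reads of Myh7 and its near-identical neighbour Myh6, the alpha myosin heavy chain, cannot be told apart with certainty. Atf3, a stress-induced transcription factor, had 4.39, 3.52 and 3.63 for day-1 TAC, 5.47, 6.0 and 6.26 for day-7 TAC and 3.32, 2.8 and 3.61 for sham, and differed by -2.07 ± 0.28 (SE, adjusted p = 0.002).

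With day-1 TAC alone away from sham, Myl1, a fast skeletal and fetal myosin light chain, had 5.08, 5.03 and 4.83 for day-1 TAC, 2.66, 2.15 and 3.13 for day-7 TAC and 2.7, 3.16 and 3.15 for sham. Its TAC difference was 2.34 ± 0.22 (SE, adjusted p = 5.83e-04), while the day-7 TAC libraries overlapped sham. Scn4b, a sodium channel beta subunit, differed by 2.08 ± 0.33 (SE, adjusted p = 0.004), Hrasls by 2.19 ± 0.23 (SE, adjusted p = 6.68e-04) and Rtn4r, the Nogo receptor, by 1.93 ± 0.25 (SE, adjusted p = 0.0018). Corin, the protease that activates pro-atrial natriuretic peptide, had 5.1, 5.96 and 7.0 for day-1 TAC, 8.15, 7.54 and 8.09 for day-7 TAC and 8.75, 9.0 and 8.3 for sham, a TAC difference of -1.9 ± 0.39 (SE, adjusted p = 0.0099). Unlike for Myl1, each day-7 TAC library of Corin also lay outside the sham range, below every sham library, though less far than the day-1 TAC libraries. Scd4, a cardiac stearoyl-CoA desaturase, differed by -2.7 ± 0.46 (SE, adjusted p = 0.0051).

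With day-7 TAC alone away from sham, Art1, a muscle ADP-ribosyltransferase, had 5.85, 6.34 and 5.54 for day-1 TAC, 3.41, 3.24 and 4.34 for day-7 TAC and 6.58, 6.33 and 6.5 for sham. It fell by 2.8 against sham with day-7 TAC and was 4.75-fold higher with day-1 TAC (2.25 ± 0.27 SE, adjusted p = 0.0011). B3galt2 differed by 1.98 ± 0.43 (SE, adjusted p = 0.014).

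Natriuretic peptides are secreted by loaded cardiomyocytes. Nppa, which encodes atrial natriuretic peptide, had 12.12, 11.52 and 11.37 for day-1 TAC, 12.5, 11.9 and 12.11 for day-7 TAC and 8.58, 9.21 and 8.83 for sham. Every TAC library was above sham, and the TAC difference of -0.5 ± 0.22 (SE, adjusted p = 0.15) did not pass the test, although it did without day-1 TAC replicate 1 (adjusted p = 0.045). Nppb, the B-type natriuretic peptide gene, stood at 9.44 ± 0.1 with day-7 and 9.15 ± 0.49 with day-1 TAC (SD, n = 3), against 7.21 ± 0.29 in sham, and its TAC difference of -0.28 ± 0.21 (SE, adjusted p = 0.39) did not pass either. Neither did that of Myh6 (-0.14 ± 0.22 SE, adjusted p = 0.70), of the cardiac troponin I gene Tnni3 (0.05 ± 0.12 SE, adjusted p = 0.79), of the cardiac transcription factor gene Gata4 (-0.16 ± 0.11 SE, adjusted p = 0.35), of the matricellular gene Postn (0.12 ± 0.29 SE, adjusted p = 0.80) or of the angiogenic factor gene Vegfa (-0.04 ± 0.1 SE, adjusted p = 0.81). These missed thresholds do not show that the groups act alike.

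Gene lists describe wider groups by their counts, beside 6.42% higher and 10.3% lower over all genes tested and a median difference of -0.03. Among oxidative phosphorylation genes, which encode subunits of the respiratory chain and ATP synthase, 22 of 75 were higher and 1 was lower with day-1 TAC, with a median difference of 0.2. The median stood at 0.01 against sham with day-1 TAC and -0.2 with day-7 TAC. Of the 23 called members 16 differed from sham only with day-7 TAC, 1 only with day-1 TAC, 6 in neither group and 0 in both. The mean over all 75 members was 8.13, 8.25 and 8.2 for day-1 TAC, 7.96, 8.12 and 7.96 for day-7 TAC, and 8.29, 8.11 and 8.19 for sham. On this mean day-7 TAC replicate 2 nearly reached day-1 TAC replicate 1, and both TAC groups overlapped sham. Cox7a1, a cytochrome oxidase subunit of muscle, had 8.04, 8.16 and 8.06 for day-1 TAC, 7.32, 7.39 and 7.44 for day-7 TAC and 8.19, 7.95 and 8.06 for sham. It fell with day-7 TAC and overlapped sham with day-1 TAC, a difference of 0.7 ± 0.08 (SE, adjusted p = 6.94e-04). Ndufs5, a complex I subunit, differed by 1.01 ± 0.09 (SE, adjusted p = 5.83e-04) and cytochrome c, Cycs, by 0.65 ± 0.11 (SE, adjusted p = 0.0054). The lower member was Atp5l (-0.61), a subunit of ATP synthase. Between 26 and 35 members were called higher under other scalings, 12 without the female library, 7 without day-7 TAC replicate 1, 9 without day-7 TAC replicate 3 and 8 without day-1 TAC replicate 2. With a minimum fold change of 1.2 the count was 2.

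Of 20 mitochondrial gene regulators, 2 were higher and 3 lower with day-1 TAC, shares near those over all genes, with a median of -0.2. Besides Ppargc1a, its relative Ppargc1b (-0.69 ± 0.19 SE, adjusted p = 0.032) and Nrf1 (-0.31) were lower, and the nuclear receptor genes Rxrg (0.53 ± 0.1 SE, adjusted p = 0.0069) and Ppard (0.36 ± 0.09 SE, adjusted p = 0.022) were higher. Ppargc1b lost its call without any one of day-1 TAC replicates 1 and 3 and day-7 TAC replicates 1 and 2 (adjusted p up to 0.10) and Ppard without any one of day-1 TAC replicate 2 and day-7 TAC replicates 1, 2 and 3 (adjusted p up to 0.069). Of mitochondrial ribosomal protein genes, which serve translation inside the organelle, 14 of 75 were higher and 1 was lower, with a median of 0.12. Their medians against sham were 0.2 with day-1 and 0.07 with day-7 TAC. Among those higher were Mrps11 (0.47), Mrps25 (0.44), Mrps21 (0.35) and Mrpl42 (0.34).

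Of 25 glycolysis genes 9 were higher and 3 lower. Across the alternative fits between 0 and 11 were called higher and between 1 and 4 lower. Pfkl, a phosphofructokinase subunit, had 6.93, 6.53 and 7.03 for day-1 TAC, 6.06, 6.22 and 5.97 for day-7 TAC and 6.18, 6.15 and 6.32 for sham and differed by 0.75 ± 0.12 (SE, adjusted p = 0.0046). The day-7 TAC libraries overlapped sham, and day-1 TAC was above both. Pgam2, the muscle phosphoglycerate mutase, differed by 0.49 ± 0.07 (SE, adjusted p = 0.0032), the lactate dehydrogenase gene Ldha by 0.47 and the pyruvate kinase gene Pkm by 0.45. Pdk1, the kinase that turns off pyruvate dehydrogenase, went the other way, with 7.2, 6.93 and 7.28 for day-1 TAC, 8.32, 8.07 and 8.31 for day-7 TAC and 8.0, 8.07 and 7.83 for sham and a difference of -1.1 ± 0.11 (SE, adjusted p = 5.85e-04). The lactate transporter gene Slc16a1 was also lower (-0.62 ± 0.1 SE, adjusted p = 0.0041). Fatty acid uptake and oxidation genes had medians below sham in both groups, -0.56 with day-1 and -0.45 with day-7 TAC. Between the TAC groups 3 of 33 were called, all lower with day-1 TAC, among them the thioesterase gene Acot2 (-0.73 ± 0.2 SE, adjusted p = 0.03) and Cpt1a (-0.5 ± 0.1 SE, adjusted p = 0.01), the fetal isoform of the fatty acid carrier enzyme. Acot2 lost its call without any one of day-1 TAC replicates 1 and 2 and day-7 TAC replicates 1, 2 and 3 (adjusted p up to 0.083). Among tricarboxylic acid cycle genes 2 were higher and 2 lower of 18, with Idh2 at -0.57 ± 0.1 (SE, adjusted p = 0.0066). Of 29 lipid synthesis genes 3 were higher and 4 lower, with Fasn, fatty acid synthase, at -0.62 ± 0.1 (SE, adjusted p = 0.0041) below sham in both groups and Pnpla3 the highest.

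**Figure D5:**
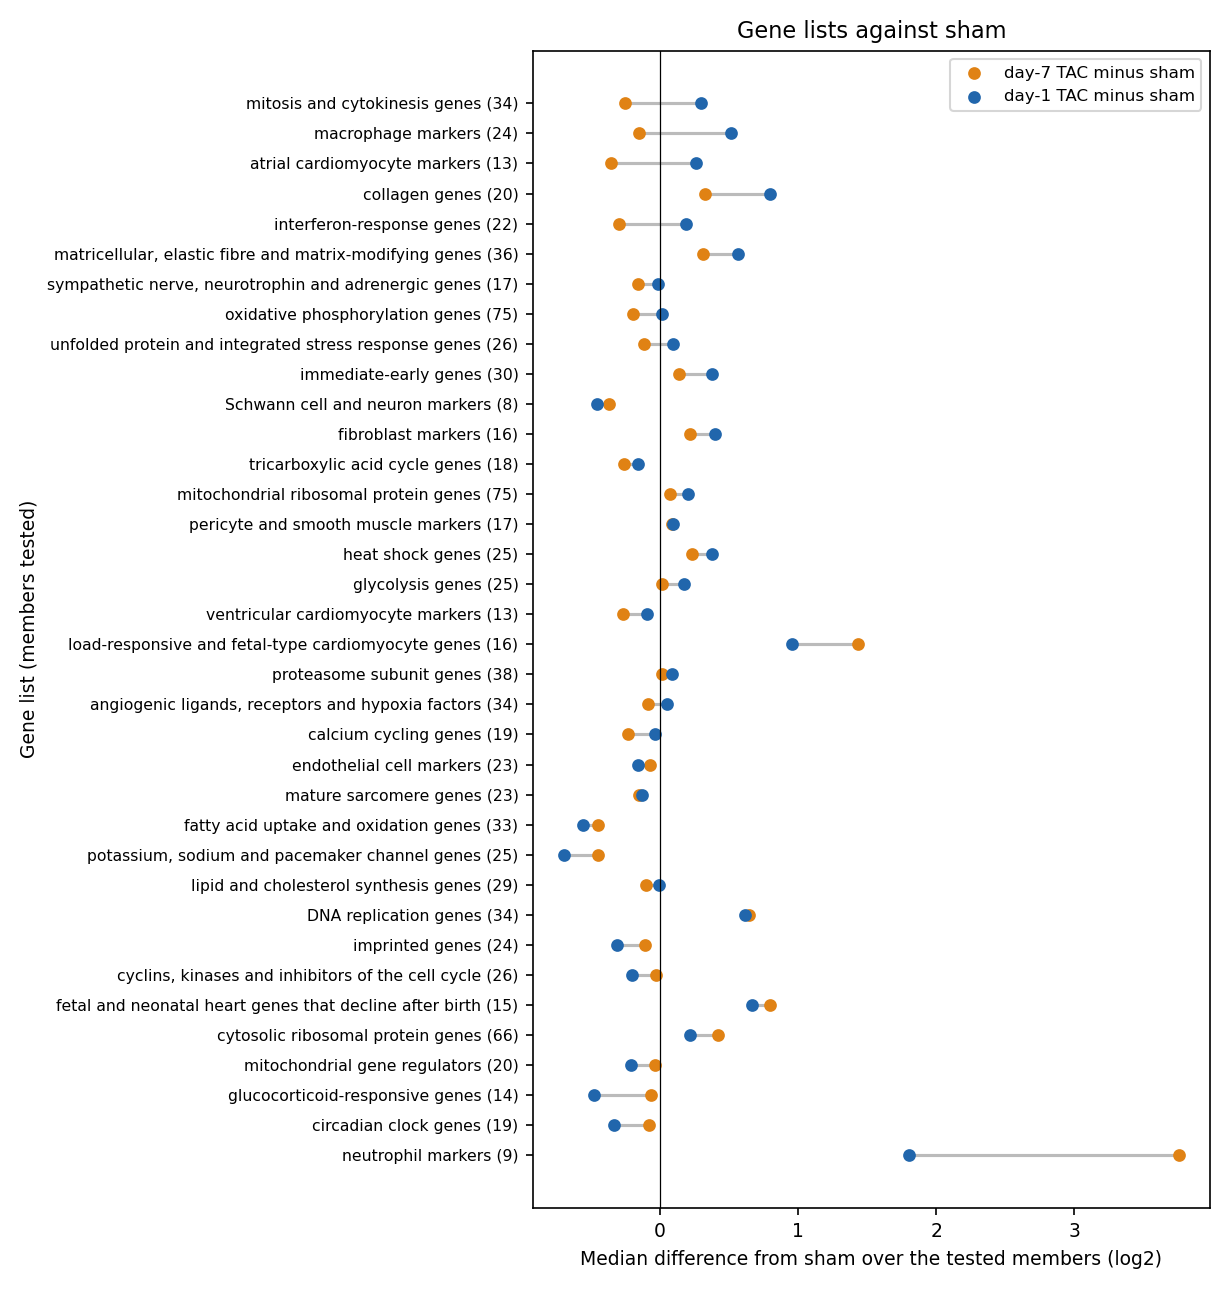
Median difference from sham (x axis, log2) over the tested members of each gene list with at least 8 of them (y axis, with the number tested), in orange for day-7 TAC and in blue for day-1 TAC. Both groups share the sham libraries. Oxidative phosphorylation genes lie at -0.20 with day-7 and 0.01 with day-1 TAC, and macrophage markers at -0.15 and 0.52.

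Of load-responsive and fetal-type genes 3 were higher (Acta1, Nmrk2 and Tagln) and 3 lower (Tnni1, Myh7 and Acta2) of 16. Tagln and Acta2, both known from smooth muscle, thus moved apart, with 0.39 ± 0.12 (SE, adjusted p = 0.048) and -0.83 ± 0.23 (SE, adjusted p = 0.034). Tagln lost its call without any one of day-1 TAC replicates 1, 2 and 3, day-7 TAC replicates 2 and 3 and sham replicate 2 (adjusted p up to 0.15), and Acta2 without any one of day-1 TAC replicates 1 and 3 and day-7 TAC replicates 1, 2 and 3 (adjusted p up to 0.095). Of mature sarcomere genes 1 was higher and 2 lower of 23. Myom2, an M-band protein, had 9.9, 10.07 and 10.19 for day-1 TAC, 11.35, 11.08 and 11.12 for day-7 TAC and 11.89, 11.97 and 11.22 for sham and was 2.19-fold lower with day-1 TAC (-1.13 ± 0.18 SE, adjusted p = 0.004). Of calcium cycling genes 2 were higher and 1 lower of 19. Hrc, a calcium-binding protein of the sarcoplasmic reticulum, had a difference of 0.52 ± 0.11 (SE, adjusted p = 0.012) that came from a fall with day-7 TAC (-0.72 against sham). S100a1, a regulator of calcium release, rose with day-1 TAC (0.75) and differed by 0.47 ± 0.1 (SE, adjusted p = 0.011). Channel genes lay below sham in both groups (medians of -0.7 and -0.45), and 2 were higher and 2 lower of 25. Of these, Scn4b was higher and Kcne1 lower, with the values given above.

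Of 24 imprinted genes 1 was higher and 10 were lower with day-1 TAC, with a median of -0.12. Igf2, the fetal growth factor, had 7.3, 7.52 and 7.55 for day-1 TAC, 8.59, 8.87 and 8.38 for day-7 TAC and 8.91, 8.85 and 8.92 for sham. The day-1 TAC libraries were all under the others, and the TAC groups were 2.23-fold apart (-1.16 ± 0.11 SE, adjusted p = 5.85e-04). H19, the long RNA next to Igf2, had 7.22, 6.86 and 6.97 for day-1 TAC, 8.5, 8.69 and 8.07 for day-7 TAC and 8.36, 8.43 and 8.33 for sham and a difference of -1.4 ± 0.14 (SE, adjusted p = 6.26e-04). Plagl1, a zinc finger regulator of imprinted genes, had 4.3, 4.96 and 4.96 for day-1 TAC, 6.58, 6.56 and 6.21 for day-7 TAC and 6.5, 6.73 and 6.51 for sham and differed by -1.71 ± 0.17 (SE, adjusted p = 5.85e-04). For these 3 genes the day-7 TAC difference from sham did not pass the test. The amino acid transporter gene Slc38a4 differed by -0.65 ± 0.08 (SE, adjusted p = 0.0018) through a rise with day-7 TAC (0.63). Igf2bp2 and Igf2bp3, which encode fetal RNA-binding proteins, were lower with day-1 TAC as well (-1.14 ± 0.15 (SE, adjusted p = 0.002) and -0.95 ± 0.19 (SE, adjusted p = 0.0088)), and Sox11 was higher (0.92 ± 0.28 SE, adjusted p = 0.049), a call lost without any one of day-1 TAC replicates 1, 2 and 3, day-7 TAC replicates 1 and 3 and sham replicates 2 and 3 (adjusted p up to 0.15). Cdk2 (-0.53 ± 0.11 SE, adjusted p = 0.0097) and Cdk6 (-0.73 ± 0.16 SE, adjusted p = 0.014), kinases of the cell cycle, were lower.

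Of 34 DNA replication genes 0 were called by limma, and of 34 mitosis and cytokinesis genes 0. An unadjusted p under 0.05 was reached by 3 and 1 of them. At least 16.7% of all genes reach it, since that share passed the adjusted threshold. Against sham 9 DNA replication genes were higher with day-1 and 8 with day-7 TAC (14.3% and 13.8% over all genes), and 0 were lower. The voom fit to recovered reads called 1 DNA replication gene lower with day-1 TAC and 0 mitosis genes. Without day-1 TAC replicate 1, 3 DNA replication genes were lower. Mki67, the proliferation marker, had 7.12, 5.36 and 4.7 for day-1 TAC, 3.34, 6.07 and 4.93 for day-7 TAC and 5.7, 4.5 and 6.04 for sham. Both groups were widely spread, day-1 TAC replicate 1 was highest and day-7 TAC replicate 1 lowest. The mean over the mitosis list followed the same libraries, with 1.27, 3.05 and 2.33 for day-7 TAC, 4.01, 2.35 and 1.87 for day-1 TAC, and 2.81, 1.85 and 2.96 for sham. Its median difference of 0.64 became -0.07 without day-1 TAC replicate 1. Ccnd1, cyclin D1, differed by 0.44 ± 0.29 (SE, adjusted p = 0.32), which did not pass.

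All 20 collagen genes had a positive difference, with a median of 0.32, but only 3 passed the test. Col8a1, a short-chain collagen of vessels and loaded hearts, had 8.09, 6.5 and 6.65 for day-1 TAC, 5.49, 5.21 and 5.31 for day-7 TAC and 4.24, 4.03 and 4.76 for sham and was 3.35-fold higher (1.74 ± 0.35 SE, adjusted p = 0.0096). Col6a3 differed by 0.68 ± 0.15 (SE, adjusted p = 0.015) and Col1a1 by 0.6 ± 0.18 (SE, adjusted p = 0.042), the latter lost without any one of day-1 TAC replicates 1 and 2, day-7 TAC replicates 1, 2 and 3 and sham replicate 1 (adjusted p up to 0.12) and the former without day-7 TAC replicate 2 (adjusted p = 0.053). Against sham 18 of 20 were higher with day-1 TAC (14.3% over all genes) and 6 with day-7 TAC (13.8%). Of 36 matricellular and matrix-modifying genes 3 were higher and 5 lower. Tissue inhibitors of metalloproteinases moved apart: Timp1 was higher (0.67), while Timp4, Timp3 (-1.04 ± 0.18 SE, adjusted p = 0.0051) and Timp2 (-0.27) were lower. Thbs2, a thrombospondin, was lower (-0.62 ± 0.13 SE, adjusted p = 0.013).

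Of 34 angiogenic ligands, receptors and hypoxia factors 5 were higher and 4 lower. The alternative fits called between 0 and 8 of them higher and between 0 and 4 lower. Angpt1, the ligand of the endothelial receptor Tie2, had 2.78, 3.1 and 2.89 for day-1 TAC, 2.28, 2.29 and 2.16 for day-7 TAC and 4.0, 4.39 and 4.38 for sham. It was below sham in both groups and farther with day-7 TAC, a difference of 0.68 ± 0.14 (SE, adjusted p = 0.01). Fgf1, a fibroblast growth factor, had the same order (0.46 ± 0.08 SE, adjusted p = 0.006). Igf1, the insulin-like growth factor, was higher with day-1 TAC (0.66 ± 0.13 SE, adjusted p = 0.0086) by a rise over sham of 0.56. Lower with day-1 TAC were Hif3a, the placental growth factor gene Pgf (-0.77), the Notch target Hey2 (-0.63 ± 0.11 SE, adjusted p = 0.0065) and Epas1 (-0.41), which encodes HIF-2 alpha.

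Of 30 immediate-early genes 6 were higher and 2 lower. Egr1 (1.75), Fos (1.27), Junb (0.67), Ier2 (0.81 ± 0.13 SE, adjusted p = 0.004), Dusp6 (0.65) and Egr2 were higher with day-1 TAC, whereas Nr4a3 and Atf3 were lower. Of 25 heat shock genes 7 were higher and 2 lower, and across the alternative fits between 2 and 8 were higher and between 0 and 2 lower. Cryab, the small heat shock protein alpha B-crystallin, had 9.81, 9.63 and 9.74 for day-1 TAC, 9.03, 9.24 and 8.89 for day-7 TAC and 9.12, 9.07 and 9.02 for sham. The day-7 TAC libraries overlapped the sham libraries, with each day-1 TAC library above both, a difference of 0.67 ± 0.09 (SE, adjusted p = 0.0023). Hsph1 (0.86 ± 0.13 SE, adjusted p = 0.0037) and Hspb8 (0.51 ± 0.09 SE, adjusted p = 0.0064), both chaperones, followed, and Hsf2, a heat shock transcription factor, was lower (-0.45 ± 0.08 SE, adjusted p = 0.0067). Of unfolded protein and integrated stress response genes 6 were higher and 2 lower of 26. The alternative fits called between 0 and 7 of them higher and between 0 and 2 lower. Lower were the transcription factor genes Ddit3 (-0.46 ± 0.12 SE, adjusted p = 0.029) and Atf4 (-0.31). Higher were, among others, Mthfd2 (1.16 ± 0.28 SE, adjusted p = 0.021) and Aldh18a1 (0.76 ± 0.14 SE, adjusted p = 0.0079), enzymes of one-carbon and proline synthesis, and Sdf2l1 (1.47 ± 0.34 SE, adjusted p = 0.017), a protein of the endoplasmic reticulum. Calls were lost without any one of day-7 TAC replicates 1, 2 and 3 (adjusted p up to 0.086) for Ddit3, without any one of day-1 TAC replicates 1 and 3 and day-7 TAC replicates 1 and 3 (adjusted p up to 0.075) for Mthfd2 and without any one of day-1 TAC replicate 1 and day-7 TAC replicates 1 and 3 (adjusted p up to 0.063) for Sdf2l1.

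Among markers of other cell types, macrophage markers had the highest share of called members of the lists with at least 8 tested. Fewer cells of a type and less RNA per cell cannot be told apart in bulk libraries, here and in the lists above. Of 24 macrophage markers 9 were higher with day-1 TAC and 0 lower, with a median of 0.55, and 22 of 24 were positive. F13a1, a marker of resident cardiac macrophages, had 5.45, 5.08 and 5.31 for day-1 TAC, 3.94, 4.12 and 3.84 for day-7 TAC and 4.82, 5.1 and 5.41 for sham. It fell with day-7 TAC and overlapped sham with day-1 TAC, a 2.49-fold difference (1.31 ± 0.15 SE, adjusted p = 8.91e-04). Mrc1, the mannose receptor, differed by 0.93 ± 0.17 (SE, adjusted p = 0.0063), Cd68, a lysosomal protein, by 1.1 ± 0.22 (SE, adjusted p = 0.0094) and the complement gene C1qa by 0.76 ± 0.15 (SE, adjusted p = 0.008). Summed over the list, linear values ranged from 286 to 358 in sham, 216 to 275 with day-7 TAC and 291 to 404 with day-1 TAC. Without the female library 6 were called higher, as without day-1 TAC replicate 1 or day-7 TAC replicate 3, and 1 with a minimum fold change of 1.2. Neutrophil markers went the other way, with a negative difference in all 9 tested, 2 of them by the test. Their mean ran from 1.49 to 2.44 with day-7 TAC, -0.35 to 1.57 with day-1 TAC and -2.02 to -1.34 in sham. The filter asked for values above 0 in at least 3 libraries, which the day-7 TAC libraries alone could meet. The shared negative sign can therefore come in part from the filter. S100a9, a calcium-binding protein of neutrophils, had 1.03, 1.3 and 3.76 for day-1 TAC, 3.6, 4.87 and 3.78 for day-7 TAC and 0.85, 0.49 and -0.36 for sham. Its TAC difference did not pass (adjusted p = 0.053), and day-1 TAC replicate 3 reached the day-7 TAC level. Without that library it did pass (adjusted p = 0.0052). The list summed to 3.02 to 5.59 in sham, 35.2 to 77.8 with day-7 TAC and 9.19 to 37.4 with day-1 TAC.

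Of ventricular cardiomyocyte markers 2 were higher and 0 lower of 13, which are Ckmt2 and the myoglobin gene Mb (0.49 ± 0.12 SE, adjusted p = 0.025), whose call was lost without any one of day-1 TAC replicate 3 and day-7 TAC replicates 1, 2 and 3 (adjusted p up to 0.084). Their summed level overlapped, from 105210 to 130591 with day-1 and 115268 to 124646 with day-7 TAC. Of endothelial markers 0 were higher and 2 lower of 23, Sox17 (-0.71 ± 0.13 SE, adjusted p = 0.0078) and Ptprb (-0.42 ± 0.08 SE, adjusted p = 0.0089). Fibroblast markers had 1 higher and 1 lower of 16, pericyte and smooth muscle markers 2 higher and 1 lower of 17, and lymphocyte markers 0 of 2 tested. Atrial markers had 0 called of 13, with 10 positive and a median of 0.37. Erythroid markers had 0 called of 5, all positive with a median of 0.45, and summed to 675 to 919 for day-1 TAC, 395 to 459 for day-7 TAC and 312 to 1061 for sham. Summed fibroblast levels were 5744 to 6761 with day-1 and 5103 to 5949 with day-7 TAC. Nuclear-retained long RNAs averaged 7.16 to 7.55 for day-1 TAC, 7.9 to 8.01 for day-7 TAC and 7.27 to 7.34 for sham. Of 4 tested 2 were lower with day-1 TAC, Malat1 (-1.08 ± 0.25 SE, adjusted p = 0.017) and Meg3 (-0.47 ± 0.12 SE, adjusted p = 0.021), with calls lost without any one of day-7 TAC replicates 2 and 3 (adjusted p up to 0.066) for Malat1 and without any one of day-1 TAC replicate 1 and day-7 TAC replicates 1 and 2 (adjusted p up to 0.066) for Meg3. Histone genes had 2 higher and 0 lower of 5 and summed to 67.0 to 69.6 for day-1 TAC, 43.2 to 57.7 for day-7 TAC and 63.3 to 68.2 for sham. The part of these markers and RNAs in the differences of the other lists was not tested. Short transcripts tended higher with day-1 TAC, with a median of 0.02 in the shortest of 5 length classes and -0.09 in the longest, where 5.15% were called higher and 15.1% lower. With this trend with length removed, 22 oxidative phosphorylation genes were called higher and 1 lower, while the clock genes called lower went from 5 to 3, the imprinted genes called lower from 10 to 8 and the collagen genes called higher from 3 to 5.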

How the data were processed

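Left ventricular RNA of 9 samples, in 3 groups of 3, was read from a table of log2 values that the authors deposited. The file headers name the values as TMM-scaled. Per the submitters' processing notes, the authors used mm10, STAR, edgeR and Trim Galore. The sources used here give no version, annotation or strand setting. In the file headers 2 sham columns carry one name, and sham replicate numbers 2 and 3 follow column order. Of 16710 rows, 12 rows of 3 repeated symbols were left out. Every value was a whole multiple of 1 read in its library, within a tolerance of 0.001 reads, which gave the depths. Genes above 0 in at least 3 libraries were tested (13712). Since the unit is log2, limma 3.58.1 (R 4.3.3) with an intensity trend was fitted to all 9 libraries, two-sided, with Benjamini-Hochberg adjustment over all genes and calls under 0.05. Nothing says that libraries came from separate litters, so a p-value covers only the spread among these libraries, which may be technical.

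The members and gene lists were chosen with earlier results of these data known. Named were, without unnamed gene models, the 15 largest differences per direction without overlap and with a mean of at least 2, 10 opposite-side genes per direction, 6 per one-side class, up to 4 members of each list and a fixed set of heart genes. Some of them are not reported here. Reads of near-identical or overlapping genes (actins, myosins, histones, ribosomal proteins, Lrtm1 within Cacna2d3) cannot be told apart with certainty. The fit was tested on simulated data. The 23 alternatives covered scaling, filters, pseudocount, spread model, length, a replicate block and each library left out.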

Additional observations from a re-analysis of the deposited data

Results flagged for a closer look

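The effect of TAC against sham had opposite signs for the 2 days of banding in the genes that follow, and the difference itself passed limma's test. As differences of day-1 minus day-7 TAC on the log2 scale, they were 2.86 for Pnpla3, 2.55 for Lrtm1, 2.4 for Cacna2d3, 1.55 for Mme, 1.4 for Tmtc2, 1.33 for Hist1h2bc, 1.17 for Trim72, 1.13 for Lgi4, 1.08 for Ckmt2 and 0.96 for Ogfrl1. Negative differences were -1.8 for Ppargc1a, -1.6 for Scin, -1.46 for Kcne1, -1.3 for Fry, -1.25 for Cirbp, -1.05 for Plin4, -0.99 for Filip1, -0.93 for Tet2 and -0.77 for Krba1. The call against sham was the less stable part: Lgi4 kept both sham calls in 9 of 20 alternatives, Krba1 in 6 and Ogfrl1 in 11, whereas Ppargc1a, Kcne1, Lrtm1 and Cacna2d3 kept them in 20. Of these, Lrtm1 is nested within Cacna2d3 and may not count as a separate gene.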

How the results depend on the processing

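No called direction reversed for any named gene. Of 152 called named genes, 73 kept the call under each alternative they entered (64 under 23, and 9 under 22, since these fell below the mean of at least 2), 79 lost it with a minimum fold change of 1.2, 41 of these without some library and 27 with the replicate block. Of 2287 calls, a minimum fold change of 1.2 left 273 (120 higher, 153 lower; 158 on opposite and 115 on one side of sham, with 5 and 21 called against sham in both groups). Without the intensity trend the one-side genes with both sham calls numbered 195, and with upper-quartile scaling 936 genes were lower with day-1 TAC. Same-numbered TAC libraries did not deviate together (correlations of -0.22, -0.11 and -0.04), and unlike-numbered ones ranged from -0.17 to 0.23. Deviations from a mean of 3 libraries depend on each other, so these values cannot settle whether the numbers pair libraries. Fitted on the 6 TAC libraries alone, with sham out of the estimate of spread, 2050 genes were called. With a replicate block on these 6 libraries 1167 genes were called (475 higher, 692 lower), and with the length trend also removed 960 (468 and 492). With libraries left out in turn, calls ranged from 1261 to 2491, higher from 497 to 941, lower from 746 to 1550, opposite sides from 712 to 1271 (both sham calls 23 to 40) and one side from 536 to 1220 (both sham calls 124 to 300). A group with 1 library left out has 2 and is assumed to vary like the others. The smallest TAC difference called was 0.2, and the median SE over all genes was 0.12.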

Other observations

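Of 19 circadian clock genes 1 was higher and 5 were lower with day-1 TAC, with a median difference of -0.32 beside -0.03 over all genes. Cry2, a repressor of the clock, had 4.55, 4.74 and 4.8 for day-1 TAC, 5.59, 5.42 and 5.78 for day-7 TAC and 5.51, 5.61 and 5.66 for sham, a difference of -0.9 ± 0.1 (SE, adjusted p = 9.49e-04) that came from the day-1 TAC libraries. Cry1 stood at 4.2, 4.06 and 4.39 for day-1 TAC, 5.3, 5.17 and 5.09 for day-7 TAC and 4.64, 4.4 and 4.22 for sham and differed by -0.97 ± 0.12 (SE, adjusted p = 0.0015) through a rise with day-7 TAC. Per2 differed by -1.15 ± 0.25 (SE, adjusted p = 0.014). Rorb, a nuclear receptor gene, was the higher member (1.36 ± 0.28 SE, adjusted p = 0.01). The labels used here do not give the hour at which hearts were taken. Under each of 4 other scalings 3 clock genes were lower, as without day-7 TAC replicate 3 or day-1 TAC replicate 3. Glucocorticoid-responsive genes had 0 higher and 2 lower of 14, with Zbtb16 at -1.86 ± 0.5 (SE, adjusted p = 0.032) and Map3k6 at -1.32 ± 0.35 (SE, adjusted p = 0.029), with calls lost without any one of day-1 TAC replicates 1 and 2 and day-7 TAC replicates 2 and 3 (adjusted p up to 0.11) for Zbtb16 and without any one of day-1 TAC replicates 1 and 2 and day-7 TAC replicates 1, 2 and 3 (adjusted p up to 0.092) for Map3k6.

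Sympathetic nerve and neurotrophin genes had 2 higher and 1 lower of 17. Dbh, the noradrenaline-producing enzyme of sympathetic nerves, had 2.36, 3.38 and 2.12 for day-1 TAC, 3.85, 3.74 and 3.71 for day-7 TAC and 3.56, 3.83 and 3.59 for sham and was lower with day-1 TAC (-1.14 ± 0.26 SE, adjusted p = 0.016), and Bdnf, a neurotrophin, was higher (1.28 ± 0.33 SE, adjusted p = 0.025). These calls were lost without day-7 TAC replicate 1 (adjusted p = 0.052) for Dbh and without any one of day-1 TAC replicates 1 and 3 and day-7 TAC replicates 1 and 2 (adjusted p up to 0.083) for Bdnf. Cytosolic ribosomal protein genes had 3 higher and 6 lower of 66, with medians of 0.22 against sham with day-1 and 0.42 with day-7 TAC. Rpl3 differed by -0.81 ± 0.15 (SE, adjusted p = 0.0074) and its muscle paralog Rpl3l by 0.94, with the paralog lower than sham in the day-7 TAC group (-1.38). Interferon-response genes had 1 higher (Ifi27, 0.58 ± 0.1 SE, adjusted p = 0.0055) and 0 lower of 22, and proteasome genes 0 higher and 1 lower of 38, which is the immunoproteasome gene Psmb10 (-0.48 ± 0.12 SE, adjusted p = 0.021), a call lost without any one of day-1 TAC replicate 2 and day-7 TAC replicates 1 and 2 (adjusted p up to 0.073).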
